A study of Mus musculus with 5 samples.

Results

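The 170 spots described here carried the highest score for mural cells, the pericytes and smooth muscle cells that wrap blood vessels, in 5 sections of neonatal mouse heart. They were 170 of 3342 spots with at least 1000 unique molecular identifiers (UMIs, counted transcripts) and of 3364 spots in all. Each spot of the Visium slide captured the RNA of a small patch of tissue that can hold several cells, and the deposited tables hold 11 cell type scores for it. These scores came from transferring the labels of an earlier single-nucleus data set, and add up to the whole in every spot. In each section the 5% of spots with the highest Pericyte/SMC score were taken. These top-score spots numbered 28 of 543 in the sham section of day 3, 19 of 365 in the MI section of day 3, 48 of 960 in the sham section of day 7, and 35 of 688 and 40 of 786 in MI replicates 1 and 2 of day 7. The same expression values had gone into the score, so the genes that separate these spots from the others are given as a description, without a test.

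Pericytes sit on capillaries, share a basement membrane with the endothelium and are recruited by endothelial PDGF-B through its receptor Pdgfrb. Vascular smooth muscle cells form the contractile coat of arteries and are known by the smooth muscle myosin Myh11. In arteries the endothelial Notch ligand Jag1 acts on Notch3 in the adjoining mural cells, a signal that arterial smooth muscle needs in order to mature.

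All sections came from wild-type C57BL/6 mice whose left anterior descending coronary artery was ligated on postnatal day 1, which causes a myocardial infarction (MI), or that had the sham operation without ligation. Hearts were sectioned at 10 µm from below the suture. Day 3 after surgery had 1 sham and 1 MI section, and day 7 had 1 sham and 2 MI sections. The MI sections of day 7 were biologically independent, and each other group was a single biological sample. P-values below rest on these few sections. Those from limma, a linear model fit per gene, also draw on the spread of other genes. The whole transcriptome was measured in all of them.

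The median spot held between 20845 UMIs in the sham section of day 3 and 53988.5 in MI replicate 1 of day 7. Gene values were set to counts per 1e+06 counts (CPM) in each spot over the 13711 genes that all tables share, and averaged over the spots of a section. The sham day 3 table held raw counts and the other 4 held depth-corrected counts, so anything that sets the sham section of day 3 apart cannot be told apart from that difference in processing. Of 3342 spots, 55.3% to 72.6% per section had a Pericyte/SMC score of 0. Because slides share 1 set of position barcodes, 897 barcodes occurred in at least 2 sections.

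The limit of membership lay low on the score scale. The lowest score among the top-score spots was 7.05%, 4.44%, 14.4%, 12.9% and 10.6% in sham day 3, MI day 3, sham day 7, MI day 7 replicate 1 and MI day 7 replicate 2, the order used throughout. The highest score just outside was 7.03%, 4.20%, 13.7%, 12.5% and 10.6% in the same order. The highest scores reached 72.8% to 81.9%, but only 17 of the 170 spots had a score over 50%. Pericyte/SMC was the highest of the 11 scores in 42 of them, while a cardiomyocyte class, CM1, was highest in 45, fibroblasts in 36 and endothelial cells in 24. Averaged over the sections, the mean Pericyte/SMC score was 24.4% against 0.786% in the other spots, the endothelial score 15.8% against 8.26%, though 7.89% against 8.95% in the sham section of day 7, and the macrophage score 1.72% against 4.81%. The CM1 score, 40.8% in the other spots, differed most among the remaining types, by -20.8 points on average and by -7.70 to -30.5 points in the sections. Most of these spots were thus mixtures in which mural cells were scored as a minority.

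**Figure D1:**
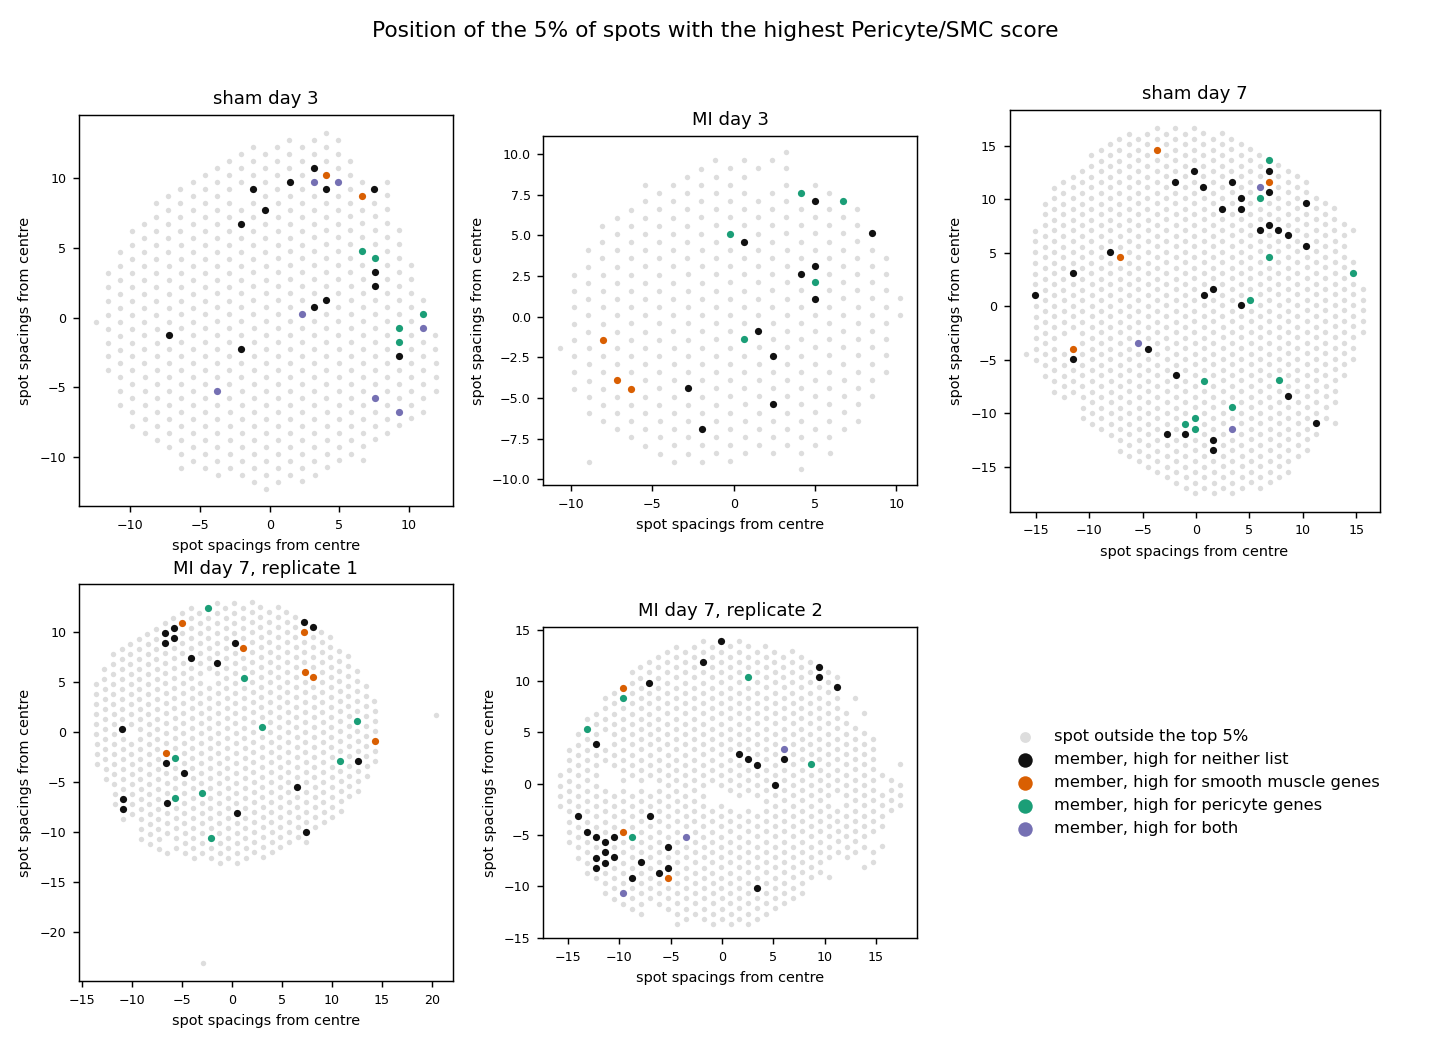
Position of the spots in each section, with both axes in spot spacings from the section centre. Grey points are the other spots and coloured points the 170 top-score spots, 103 of which were high for neither smooth muscle nor pericyte genes.

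Among listed genes, the largest ratios of top-score to other spots belonged mostly to smooth muscle and arterial genes. Of 13116 genes kept, 31 (0.236%) had a log2 ratio of top-score to other spots over 0.5 in all 5 sections and 16 (0.122%) had one under -0.5 in all 5, where the ratio was taken of mean CPM plus a pseudocount of 1. On the smooth muscle list 5 of 19 kept genes were among the 31, on the arterial endothelial list 5 of 12, on the pericyte list 2 of 20 and on the Notch list 2 of 13. The median log2 ratio was 0.81, 0.93, 0.37 and 0.59 in these 4 lists, against -0.01 over all genes. A looser rule, a log2 ratio above 0 in all 5 sections, was met by 692 genes (5.28%), and one below 0 in all 5 by 422 (3.22%). On the shorter lists that serve to split the spots further on, 3 of 9 smooth muscle genes and 2 of 11 pericyte genes were among the 31, and the medians were close, at 0.27 and 0.23. More cells of a type in a spot and more RNA of that type per cell cannot be told apart in such data. The score is built on the same values, and 24 of the 31 genes had their largest ratio in the sham section of day 3, whose table was not depth-corrected.

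Myh11 (chr16:14194535-14291372, minus strand, GRCm38), the myosin heavy chain of smooth muscle, had the highest mean log2 ratio of the listed genes. Its mean level in the top-score spots was 159, 94.3, 61.9, 51.5 and 65.7 CPM, against 8.35, 9.98, 21.8, 12.9 and 16.8 CPM in the other spots, so the levels did not overlap. The mean log2 ratio was 2.5 ± 1.08 (SD, n = 5). In the raw counts of the sham section of day 3, the 28 top-score spots held 87 Myh11 UMIs (95% Poisson interval 69.7 to 107, counting error only), as many as the 515 other spots together. The gene was nevertheless uneven among the members: 76 of 170 had no Myh11 at all, and 63 exceeded the 95th percentile of the other spots of their section.

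Mylk, the kinase that phosphorylates myosin light chain and triggers contraction, was at 111, 59.1, 53.3, 48.4 and 38.4 CPM against 17.3, 21.9, 20.2, 17.1 and 20.7 CPM. Its section means again did not overlap, and its mean log2 ratio was 1.53 ± 0.65. Nrip2 (mean log2 ratio 2.01), Mustn1 (1.67) and Kcnmb1 (1.43), the last a subunit of the large-conductance potassium channel that relaxes smooth muscle, completed the 5 genes. Tagln, an actin-binding protein of smooth muscle, was at 254, 235, 46.8, 76.6 and 91.6 CPM against 32.8, 86.5, 45.2, 24.6 and 43.0 CPM, and its log2 ratio was only 0.05 in the sham section of day 7. Acta2, smooth muscle actin, which immature cardiomyocytes and activated fibroblasts also use, was at 985, 1087, 381, 444 and 779 CPM against 390, 503, 374, 277 and 586 CPM, with a mean log2 ratio of 0.71 ± 0.53. Cnn1, calponin, had no steady direction, at 24.2, 25.2, 2.75, 5.78 and 5.02 CPM against 11.6, 56.7, 5.41, 2.90 and 9.21 CPM. Myocd, the coactivator that switches on smooth muscle genes together with Srf, differed little, with mean log2 ratios of 0.19 for Myocd and 0.10 for Srf.

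Most contractile genes of smooth muscle are classic targets of Srf, which binds a motif called the CArG box. RefSeq promoter windows of GRCm38.p6 were searched on both strands for it, within the 250 bases before the start. Only exact matches counted, with CC, then A or T bases only, then GG. A box with a differing base would be missed. Of 32851 promoters 482 (1.47%) held an exact match. Of the 31 higher genes 19 had an entry, with 23 promoters, and 0 held an exact match in that window. Of the 20 smooth muscle genes 15 had an entry, and only Myl9, the regulatory light chain whose mean log2 ratio was 0.23, held one. Those without an entry were Myh11, Tagln, Actg2, Nrip2 and Map3k7cl. The first 200 bases of the window are shown for the promoters of Mylk (chr16:34784700-34784899, plus strand) and Notch3 (chr17:32166941-32167140, minus strand), which were higher in all 5 sections, and of Myl9 (chr2:156775214-156775413, plus strand), which was not, with the CArG box in capitals. The Mylk start used here lies inside the annotated gene, so it belongs to a shorter transcript.
Mylk: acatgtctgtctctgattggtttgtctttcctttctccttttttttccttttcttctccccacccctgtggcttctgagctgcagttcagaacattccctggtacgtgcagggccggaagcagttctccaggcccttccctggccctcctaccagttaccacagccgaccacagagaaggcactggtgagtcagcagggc
Notch3: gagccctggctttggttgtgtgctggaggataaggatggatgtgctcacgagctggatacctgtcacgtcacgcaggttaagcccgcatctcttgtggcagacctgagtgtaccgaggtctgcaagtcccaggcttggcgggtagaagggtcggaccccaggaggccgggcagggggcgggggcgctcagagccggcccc
Myl9: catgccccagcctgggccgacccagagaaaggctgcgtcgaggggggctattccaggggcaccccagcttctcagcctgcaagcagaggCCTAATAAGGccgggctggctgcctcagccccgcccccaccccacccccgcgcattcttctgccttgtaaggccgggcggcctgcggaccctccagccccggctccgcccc
The box of Myl9 began 161 bases before the start. No match says only that the exact form of the motif is not in this window.

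Among pericyte genes the picture was mixed. Rgs5 (chr1:169655501-169695813, plus strand), a regulator of G protein signalling that marks pericytes and some arterial smooth muscle, was higher in every section, at 345, 245, 470, 443 and 366 CPM against 182, 154, 293, 317 and 226 CPM, with a mean log2 ratio of 0.69 ± 0.15. It was detected in all 170 members, and its difference was the steadiest of the 5 markers. Notch3, the Notch receptor of mural cells, was at 122, 122, 89.3, 105 and 81.5 CPM against 46.2, 51.1, 49.0, 46.9 and 49.8 CPM. Its section means did not overlap, and its mean log2 ratio was 1.06 ± 0.28. Ndufa4l2, a mitochondrial protein typical of mural cells, had a mean log2 ratio of 0.68 ± 0.16. Notch3 and Ndufa4l2 were the 2 pericyte-list genes over 0.5 in all 5 sections, whereas Rgs5 fell just short of the limit in 1 of them, at 0.48.

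The remaining pericyte markers of the label were less steady. Pdgfrb, the PDGF-B receptor, was at 106, 101, 104, 84.6 and 65.4 CPM against 54.1, 68.0, 66.1, 62.9 and 75.1 CPM, higher in 4 sections and lower in MI replicate 2 of day 7. Its mean log2 ratio was 0.48 ± 0.43. Kcnj8 and Abcc9 encode the pore and the sulphonylurea receptor of the potassium channel that opens when ATP is low, and lie side by side on chromosome 6 (Kcnj8 chr6:142564837-142571614, Abcc9 chr6:142587862-142702315). Kcnj8 was at 57.7, 39.0, 70.9, 38.8 and 35.5 CPM against 41.3, 28.5, 44.8, 39.2 and 46.3 CPM, and Abcc9, which cardiomyocytes also express, was at 93.0, 143, 177, 186 and 133 CPM against 141, 149, 137, 178 and 120 CPM. Levels overlapped for both genes, and their mean log2 ratios were 0.23 ± 0.42 and -0.01 ± 0.36. Only 12 members for Kcnj8 and 9 for Abcc9 exceeded the 95th percentile of the other spots. The 2 channel genes thus showed no steady difference, and the spots are called here by their score.

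**Figure D2:**
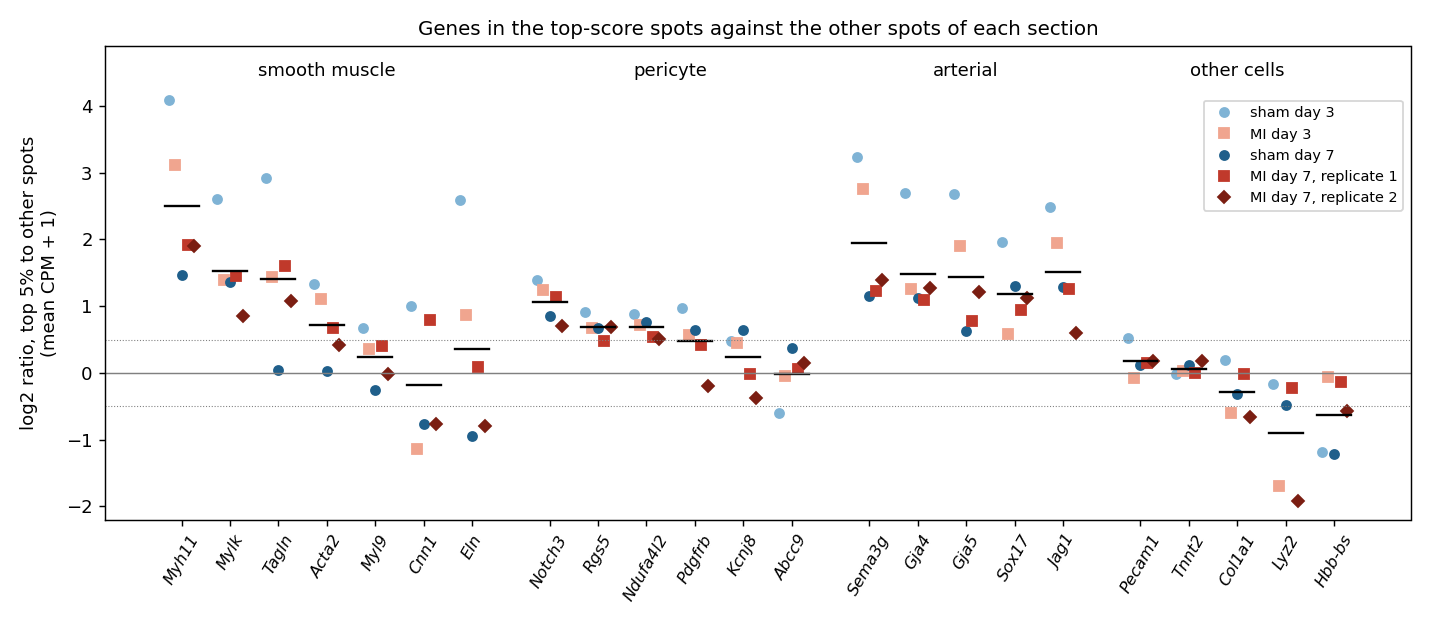
Log2 ratio of top-score to other spots (mean CPM plus 1) for selected genes, with 1 symbol per section and 0 meaning no difference. Myh11 averaged 2.5 and Jag1 1.52, while Kcnj8 and Abcc9 scattered around 0.

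The 17 members with a score over 50% were compared with the other members. They numbered 3, 4, 6, 3 and 1 in the sections, so the value of MI replicate 2 of day 7 rests on 1 spot. Rgs5 averaged 514 CPM in them against 357 CPM and was higher in 5 of 5 sections, and Pdgfrb averaged 140 against 87.1 CPM, also higher in 5 of 5. Mylk (86.6 against 58.5 CPM), Gja4 (113 against 68.4 CPM) and Kcnj8 (67.3 against 46.6 CPM) were higher in 4 of 5 sections. Myh11 was at 80.1 against 87.3 CPM, although higher in 4 of 5 sections, and Gja5 was at 41.6 against 50.2 CPM and higher in 1. Notch3 and Abcc9 were higher in 3 of 5 sections, and Acta2 in 2. As these spots were picked on the score, the values are a description.

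Several genes of the arterial wall's inner layer were also higher in the top-score spots. Gja5 (chr3:96904693-97077416), a gap junction protein of arterial endothelium and of the conduction system, was at 136, 42.4, 23.6, 20.6 and 31.0 CPM against 20.3, 10.6, 14.9, 11.7 and 12.8 CPM. Gja4 (chr4:127311421-127314039), the other arterial connexin, was at 115, 66.2, 65.5, 54.2 and 62.8 CPM against 17.0, 27.2, 29.7, 24.9 and 25.4 CPM. The section means of the spot classes did not overlap for either gene, for Gja5 only narrowly (20.6 against 20.3 CPM). Mean log2 ratios were 1.44 ± 0.85 and 1.48 ± 0.68. Single spots did overlap: 98 of 170 members had no Gja5 and 59 no Gja4. Only 31 and 47 exceeded the 95th percentile of the other spots. Sema3g, a semaphorin of arterial endothelium (1.95), Stmn2 (1.51) and Sox17, a transcription factor needed for arterial identity (1.18), were the other members past the limit. Efnb2, the arterial ephrin ligand, had a mean log2 ratio of 0.50 and was higher in 5 of 5 sections. Of the 12 arterial genes 8 were higher in 5 of 5, and Clu was the lowest at -0.49. The summed arterial list was at 776, 969, 419, 388 and 384 CPM against 225, 1403, 281, 246 and 432 CPM. It was thus lower in the members of the MI section of day 3 and of MI replicate 2 of day 7. Reln, a secreted glycoprotein on the venous and lymphatic list, also passed the limit, with a mean log2 ratio of 1.68. Pan-endothelial genes were nearly level, with a list median of 0.04 and 0.18 for Pecam1.

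The Notch genes are given by role. Of the ligands, Jag1 (chr2:137081456-137116644) was at 90.1, 50.1, 52.3, 34.6 and 19.6 CPM against 15.3, 12.3, 20.7, 13.9 and 12.6 CPM (mean log2 ratio 1.52 ± 0.72), Dll4 averaged 0.64 and Jag2 0.59, both higher in 5 of 5 sections, and Dll1 -0.09. Of the receptors, Notch3 stood at 1.06, above Notch4 (0.29), Notch1 (0.26) and Notch2 (0.02). Of the targets, Heyl (0.86) and the feedback inhibitor Nrarp (0.69) were higher in 5 of 5 sections, Hey1 (0.80) in 4, and Hes1 (0.09) and Hey2 (-0.21) in 3. Jag1 and Notch3 were the 2 of 13 genes over 0.5 in every section.

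As lists, the PDGF, angiopoietin and TGF-beta genes barely differed. The 7 PDGF ligands and receptors had a list median of 0.02, and Pdgfb itself, the endothelial ligand, a mean log2 ratio of 0.26 ± 0.24. The medians were 0.01 for 8 angiopoietin and junction genes and 0.07 for 12 TGF-beta genes. Among 17 mural transcription factors none passed the limit in all sections, but Tbx2 (1.02), Foxs1 (0.92), Nr2f2 (0.66) and Ebf1 (0.48) were higher in 5 of 5. Tbx18 was the lowest of the 17, at -0.40, and the list median was 0.19. Of 14 kept receptors and channels that set vessel tone, the endothelin receptor Ednra (0.37), the cGMP-dependent kinase Prkg1 (0.49) and the phosphodiesterase Pde3a (0.37) were higher in 5 of 5.

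In the matrix of the vessel wall, Fbln5, which organises elastic fibres, had a mean log2 ratio of 1.07 and was higher in 5 of 5 sections. Eln, elastin, was uneven, at 836, 765, 163, 407 and 358 CPM against 138, 420, 314, 382 and 621 CPM, higher in 3 sections and lower in 2. Of 13 basement membrane genes 7 were higher in 5 of 5 sections, against 5.28% of all genes, led by Lama5 (0.69) and Col18a1 (0.63), with a list median of 0.16. Off the lists, genes of at least 20 CPM in the members and higher in 5 of 5 sections were ranked. The largest ratios among them belonged to 2 olfactory receptor genes, Olfr558 (2.18 ± 1.06) and Olfr78 (1.97 ± 0.97), both known outside the nose in vascular smooth muscle. The calcium-activated chloride channel Ano1 (1.59), Ace, the angiotensin-converting enzyme (1.31), Col8a1 (1.25), Gm13889 (1.04), smooth muscle tropomyosin Tpm2 (0.93), Aoc3 (0.89), Cxcl12 (0.89) and Vegfc (0.79) followed. Olfr558 was at 46.1, 16.5, 16.4, 29.9 and 13.5 CPM against 1.87, 3.97, 4.72, 6.89 and 4.26 CPM. As a caution on the counts, 12 of the 31 higher genes averaged under 10 CPM.

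Some genes of other cell types were at lower levels. The endocardial natriuretic peptide receptor Npr3 was at 9.35, 7.60, 1.76, 2.14 and 2.46 CPM against 15.0, 15.8, 5.36, 6.64 and 10.4 CPM, the only listed gene under -0.5 in all 5 sections. The list medians were -0.69 for 6 endocardial genes, -0.53 for 12 macrophage genes and -0.76 for 6 red cell genes, although none of the macrophage and red cell genes was under -0.5 in all 5 sections. Lyz2, the lysozyme of macrophages, was at 36.9, 216, 36.4, 70.1 and 39.3 CPM against 41.5, 701, 51.0, 82.4 and 152 CPM. Off the lists, among genes of at least 20 CPM in the members and lower in 5 of 5 sections, Apoe (-0.67), Ccn3 (-0.62) and Aebp1 (-0.60) were the lowest. Mmp23 (-0.56) and Meox1 (-0.51) followed, and none of these was under -0.5 in all 5. Among the 16 lower genes, C3 and Cd53 are immune genes, 14 averaged under 10 CPM, and 11 were at 0 in a section. Cardiomyocyte genes (median 0.03) and fibroblast genes (-0.11) were nearly level, although the CM1 score was lower in 5 of 5 sections.

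**Figure D3:**
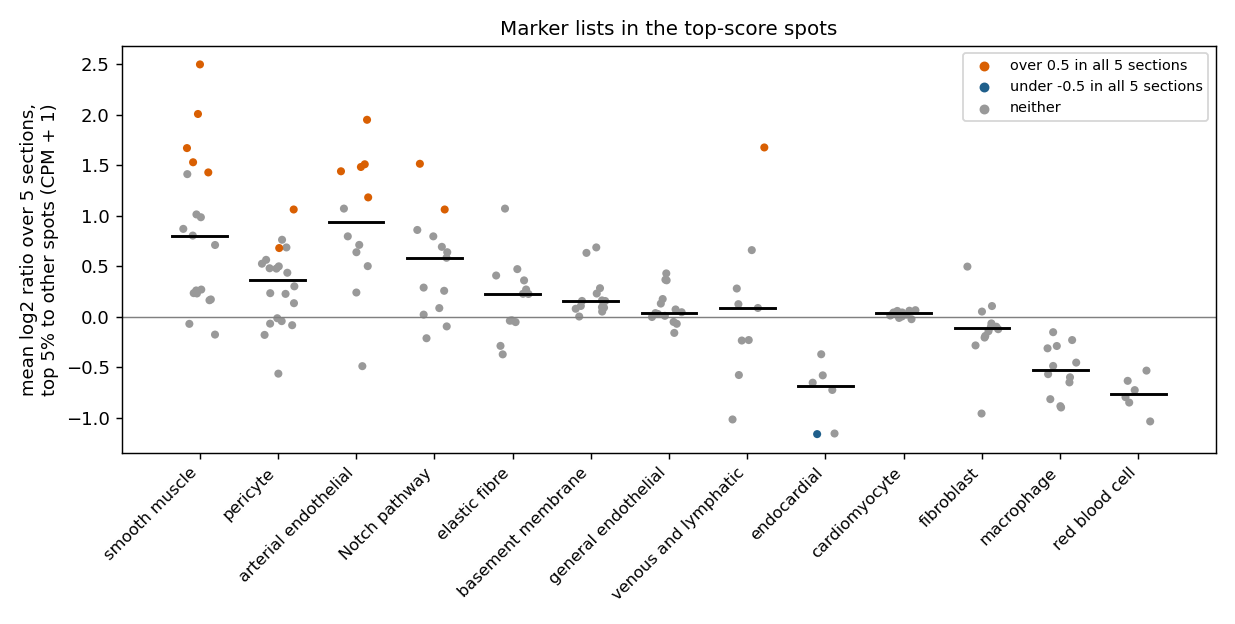
Mean log2 ratio over 5 sections of every kept gene of each list, with 1 point per gene. Smooth muscle and arterial endothelial genes spread upwards, with medians of 0.81 and 0.93, while endocardial, macrophage and red cell medians lay between -0.76 and -0.53.

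To separate smooth muscle from pericytes, 9 smooth muscle genes and 11 pericyte genes were each summed in every spot, without Acta2, Tagln and Abcc9, which cardiomyocytes also use. Smtn, which is abundant throughout the myocardium, was kept in the smooth muscle sum at 121 to 193 CPM in the other spots and took a large share of it. A spot was called high when its sum exceeded the 95th percentile of its section. Of the 170 top-score spots, 19 (11.2%) were high for smooth muscle genes only, 35 (20.6%) for pericyte genes only, 13 (7.65%) for both and 103 (60.6%) for neither. Without Smtn and Synpo2 in the sum, an alternative chosen after seeing the data, these numbers were 28, 29, 19 and 94, and 47 instead of 32 members were high for smooth muscle genes. Conversely, of 170 spots in all sections that were high for smooth muscle genes, only 32 were top-score spots, and 48 of 170 for pericyte genes. Within the top-score spots the rank correlation of the 2 sums was 0.31, 0.36, 0.15, -0.07 and 0.37 over 28, 19, 48, 35 and 40 spots, which share depth and library. The overlap differed between sections: 7 of 9 smooth-muscle-high members were also high for pericyte genes in the sham section of day 3, and 0 of 3 in the MI section of day 3. Over all 3342 spots, 43 of the 170 high for smooth muscle genes were high for both.

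**Figure D4:**
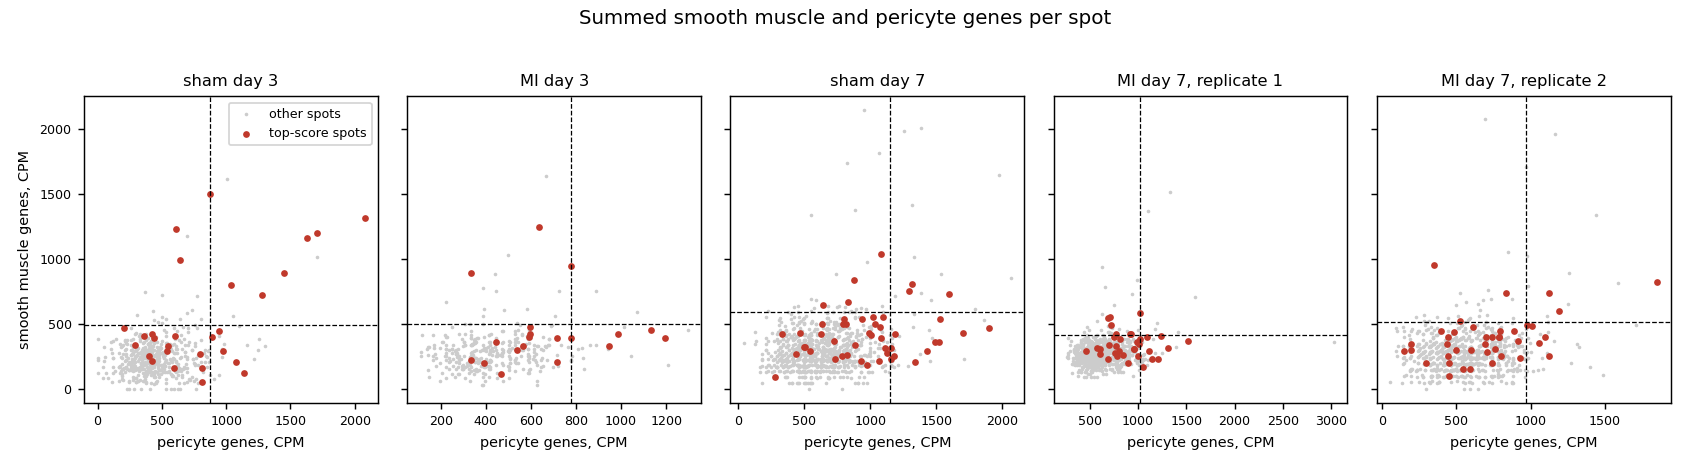
Summed CPM of 11 pericyte genes (x axis) and 9 smooth muscle genes (y axis) in each spot, by section, with dashed lines at the 95th percentiles. Top-score spots lay on both arms, and 13 of 170 were above both lines.

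The 32 members high for smooth muscle genes were compared with the other members, again without a test and with the genes of the split set apart. The split counted 65 genes (0.496%) higher and 105 (0.801%) lower by over 0.5 in all 5 sections. Of the 9 genes summed for the split, 5 are among the 65 and are higher because of it. Since groups of 3 to 9 spots make low genes noisy, only listed genes and genes of at least 20 CPM are named. Tagln, which the split did not use, was at 676, 926, 124, 128 and 241 CPM against 54.1, 105, 33.6, 63.7 and 65.3 CPM. Acta2 was at 2217, 2705, 743, 731 and 1219 CPM against 402, 784, 319, 372 and 701 CPM, so both were higher in 5 of 5 sections. Eln (mean log2 ratio 1.85), Fbln5 (2.09), Mgp, an inhibitor of vessel calcification (1.45), the tight junction gene Cldn5 (0.92), the arterial genes Bmx (2.26) and Stmn2 (1.98) and the ligand Tgfb3 (1.00) were also over 0.5 in all 5.

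Most pericyte genes did not follow this split. Of 20 none had a log2 ratio over 0.5 in all 5 sections, and Higd1b, a pericyte marker, was under -0.5 in all 5, with a list median of -0.08. Rgs5 was at 525, 74.2, 519, 416 and 491 CPM in the smooth-muscle-high members and 260, 277, 461, 449 and 344 CPM in the others, without a steady direction. Pdgfrb averaged -0.41 and Kcnj8 -0.09 in log2 ratio. Notch3, also on the pericyte list, had positive ratios in all 5 sections, from 0.03 to 2.28. Off the lists, among genes of at least 20 CPM in the smooth-muscle-high members and higher in all 5 sections, Olfml2a (3.03), C1s1 (2.5), Olfr558 (1.80), Gfra2 (1.76) and Crim1 (1.67) were the highest.

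Top-score spots lay next to each other more often than the other spots did. Among the direct neighbours of a top-score spot, 19.6%, 14.2%, 15.6%, 16.3% and 17.9% were top-score spots themselves, against 4.48%, 4.68%, 4.41%, 4.65% and 4.44% around the other spots. The difference of 12.2 ± 2.15 percentage points (SD, n = 5) had the same direction in 5 of 5 sections (exact sign-flip permutation test over sections, two-sided, p = 0.063, the smallest that 5 sections allow). The 170 spots formed 103 groups of touching spots, of which 69 were single spots and the largest held 11. At the rim of the section lay 13.3% of top-score spots and 16.9% of the others, a difference of -3.62 ± 4.17 points (exact permutation p = 0.1875). Their distance to the section centre, relative to the mean over all spots, those under 1000 UMIs included, was 1.01 against 0.980 (exact permutation p = 0.5625).

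Depth differed by less than the spread between sections. The median raw UMIs of the top-score spots were 20354, 28873, 22867, 54306 and 16985, against 20877, 35315, 22934, 53976 and 21125 in the others, lower in 4 of 5 sections (mean difference -2168, exact permutation p = 0.1875). With 10% of spots taken, the difference was -3452 (exact permutation p = 0.063). The part of depth in the ratios above was not tested.

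The 650 spots that touched a top-score spot without being one were compared with the 2522 spots farther away. Myh11 averaged 19.4 CPM in them and 12.5 CPM farther away, and was higher in 5 of 5 sections, with log2 ratios from 0.02 to 1.98. Olfr78 (mean log2 ratio 0.55), Notch3 (0.21) and Rgs5 (0.15) were also higher in 5 of 5. These were 4 of 24 genes compared, all picked for their ratios or roles in the members, against 404 of all 13116 genes (3.08%), while 718 (5.47%) were lower in all 5. Mylk (0.27) was higher in 3 sections, and Tagln (0.10) and Gja5 (0.02) in 2. The arterial genes Jag1 (0.02) and Gja4 (-0.01) were level and Eln was at -0.34.

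Infarcted and sham hearts were compared next, with the section as the replicate. The mean Pericyte/SMC score of the members was 20.8%, 23.9%, 30.9%, 24.2% and 22.1%. MI sections averaged 23.4 ± 1.12% (SD, n = 3) and sham sections 25.8 ± 7.21% (n = 2), a difference of -2.44 points that is given without a test because the score chose the members. Over all 3342 spots the mean score was 1.43%, 1.53%, 2.78%, 2.19% and 2.01%, also overlapping between MI and sham (exact permutation test, two-sided, p = 0.8, where 3 against 2 sections cannot go below 0.2).

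Haemoglobin genes, Apoe and Glo1 rose in the top-score spots of infarcted hearts. No mural gene passed the test, but the members were chosen on a mural score made from the same values. With limma on section means and day as a covariate, 7 of 13116 genes (0.0534%) were higher in MI at a Benjamini-Hochberg adjusted p under 0.05 and 0 (0%) lower, while 306 and 605 had an unadjusted p under 0.05. Under median-of-ratios scaling the split was 8 higher and 1 lower. Hbb-bs, an adult beta globin, was at 6738, 4938 and 4323 CPM in the MI sections and 1159 and 1833 CPM in the sham sections (log2 difference 1.85, SE 0.22, limma adjusted p = 0.000157). Hba-a1 (1.67, SE 0.18, limma adjusted p = 6.19e-05), Hbb-bt (1.50, limma adjusted p = 0.000726) and Hba-a2 (1.74, limma adjusted p = 0.00195) rose with it. These globin genes are near-identical copies in pairs, among which reads may have been split.

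Apoe, the lipid carrier that macrophages and other cells secrete, was at 464, 162 and 179 CPM in MI against 151 and 81.9 CPM in sham (log2 difference 1.29, SE 0.18, limma adjusted p = 0.00165). Glo1, which detoxifies methylglyoxal, was at 291, 251 and 316 CPM against 169 and 98.9 CPM (1.19, SE 0.19, limma adjusted p = 0.00615). Neither overlapped between MI and sham. Tpm3-rs7, a tropomyosin-related sequence that may share reads with Tpm3, was at 48.4, 8.97 and 29.6 CPM against 1.29 and 2.78 CPM (3.16, limma adjusted p = 0.0194). In the other spots of the same sections these genes were higher in MI as well. Apoe was at 898, 224 and 362 CPM there against 190 and 123 CPM, Glo1 at 281, 256 and 296 CPM against 166 and 103 CPM, and Tpm3-rs7 at 49.6, 12.8 and 40.3 CPM against 4.06 and 2.98 CPM. Hbb-bs was at 7041, 5425 and 6411 CPM there against 2632 and 4257 CPM.

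The number of calls changed with the sections used, and leaving one out left 1 residual degree of freedom. Without the sham section of day 3, 1 gene was called, without that of day 7 none by limma (with an unadjusted p under 0.05, 638 in the upward and 649 in the downward direction), without the MI section of day 3, 2 genes, without MI replicate 1 of day 7, 43, and without replicate 2, 24. None of the 7 genes kept its call without either sham section, and only Glo1 kept it without the MI section of day 3. For Hbb-bs the limma adjusted p was 0.877 without the sham and 0.631 without the MI section of day 3. The log2 difference of Hbb-bs was 1.33 without either section of day 3 and 2.54 without the sham section of day 7, and that of Hba-a1 was 1.36 and 2.09. Glo1 was at 0.78 without the sham section of day 7. Markers of 3 other cell sources moved with the comparison: the summed level of the 6 red cell genes in the members was 6959 to 10354 CPM in MI and 2008 and 2918 CPM in sham, and that of the 12 macrophage genes 139 to 451 CPM in MI and 117 and 138 CPM in sham. The summed level of the 12 fibroblast genes was 5874 to 7153 CPM in MI and 4625 and 5603 CPM in sham. Of these, 5 of 6 red cell genes, 3 of 12 macrophage genes and 6 of 12 fibroblast genes were higher in MI without overlap, against 5.51% of all genes tested. The part of blood, macrophages or fibroblasts in the called genes was not tested.

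Among the 39 kept smooth muscle and pericyte genes none was called, and the lowest limma adjusted p was 0.332, for Myl9. Because the mural score chose the members in every section, these tests cannot show that mural genes were unchanged. Their MI and sham levels overlapped in 30, were higher in MI without overlap in 2 and lower in 7, against 5.51% and 14.3% of all genes tested, whose median log2 difference was -0.10. Pdgfrb was at 101, 84.6 and 65.4 CPM in MI and 106 and 104 CPM in sham (log2 difference -0.30, limma adjusted p = 0.785). Kcnj8 was at 39.0, 38.8 and 35.5 CPM in MI and 57.7 and 70.9 CPM in sham (-0.76, limma adjusted p = 0.489). Myh11 overlapped (-0.37, limma adjusted p = 0.751). Jag1 was at 50.1, 34.6 and 19.6 CPM in MI and 90.1 and 52.3 CPM in sham (-0.91, limma adjusted p = 0.434), and 5 of 13 Notch genes were lower in MI without overlap.

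**Figure D5:**
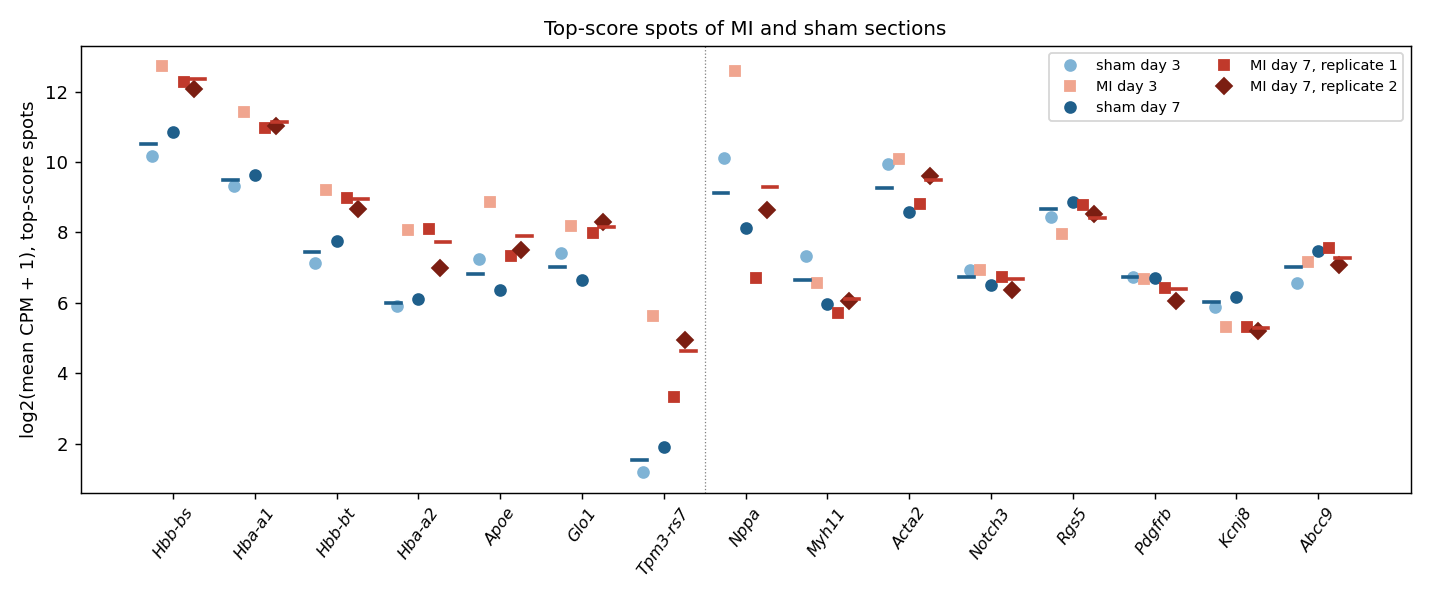
Level in the top-score spots as log2(mean CPM + 1), with 1 symbol per section. Left of the dotted line are the 7 genes that passed the test and right of it mural genes that did not, and Hbb-bs lay at 4323 to 6738 CPM in the MI sections against 1159 and 1833 CPM in sham.

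Large changes that failed the correction were also seen. Among genes of at least 20 CPM without overlap, the largest lower values in MI belonged to Ccn3 (log2 difference -1.80, limma adjusted p = 0.371), the skeletal-type calsequestrin Casq1 (-1.45, 0.0524), Olfr78 (-1.43, 0.394), Nmrk2 (-1.40, 0.492) and Mt3 (-1.34, 0.354), and Cmss1 was higher (1.46, 0.434). Olfr78 was at 9.20, 13.3 and 13.6 CPM in MI and 49.9 and 23.6 CPM in sham.

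Whether MI changed the contrast between top-score and other spots was tested as the difference of their log2 ratios. It was higher in MI for 3 of 13116 genes (0.0229%) and lower for 1 (0.00762%), with 3 and 2 under median-of-ratios scaling, and 169 and 535 genes had an unadjusted p under 0.05. Hbb-bs was less abundant in the top-score spots of sham sections (log2 ratios -1.18 and -1.22) than in those of MI sections (-0.06, -0.14 and -0.57), a difference of 0.97 (SE 0.10, limma adjusted p = 8.23e-05). Hbb-bt (1.02, limma adjusted p = 0.00310) and Hba-a1 (0.88, limma adjusted p = 0.00324) did the same, although with 10% of spots Hba-a1 was no longer called (0.68, limma adjusted p = 0.0548). Nppa, the atrial natriuretic peptide of atrial and stressed cardiomyocytes, went the other way, with log2 ratios of 0.91 and -0.16 in sham and -0.44, -0.65 and -1.73 in MI (difference -1.16, SE 0.19, limma adjusted p = 0.0215).

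Nppa was at 1099, 6132, 280, 103 and 394 CPM in the top-score spots and 584, 8293, 314, 162 and 1311 CPM in the others, so its level varied more between sections than between spot classes. Its call and that of Hbb-bt were lost without either section of day 3, although the differences kept their direction: -1.03 for Nppa (limma adjusted p = 0.672 without the sham section) and 0.85 for Hbb-bt. No smooth muscle or pericyte gene passed this test, the lowest limma adjusted p among the 39 being 0.496. Since the mural score chose the members, this cannot show that the contrast of mural genes was unchanged. Among genes of at least 20 CPM whose ratios did not overlap between MI and sham, Col8a1 (-1.24) and the natriuretic peptide receptor Npr2 (-1.18) were the lowest. Ndufaf7 (1.00) was the highest after Hbb-bt, and each of these 3 had a limma adjusted p = 0.890.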

How the data were processed

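The 5 Visium sections of mouse heart were analysed from the tables the authors deposited. The authors aligned reads with Space Ranger to mm10 (GRCm38) and processed spots in Seurat v3.2. For the sham section of day 3 they deposited raw UMI counts. For the other 4 the deposited values are sctransform-corrected counts, treated here as a depth-adjusted score and in no count test. The per-spot cell type predictions are a fraction from 0 to 1 that the authors made by label transfer, shown as percent. Deposited per-spot UMI counts gave the depth. The members and gene lists were chosen with earlier results of these data known. Spot positions were the deposited image pixels.

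Spots under 1000 UMIs were dropped, and CPM was computed over 13711 shared genes and averaged per section. Genes with at least 1 CPM in 2 sections were kept. Log2(CPM + 1) was fitted in limma 3.58.1 (R 4.3.3) with trend, day as covariate and 2 residual degrees of freedom, after a test on simulated data. The prior degrees of freedom, drawn from all genes, were 19.2 for MI against sham and 17.3 for the difference of ratios. Single values used exact permutation tests (scipy 1.17.1). Genes were named if listed, called, or extreme among those of at least 20 CPM. Neighbours were spots within 1.25 spot spacings. Gene positions came from GENCODE, and promoters from RefSeq. Intervals cover counting error only.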

Additional observations from a re-analysis of the deposited data

Results flagged for a closer look

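For 4 genes the contrast between top-score and other spots differed between infarcted and sham hearts by the test of the difference itself (limma, day as covariate, 13116 genes). Hbb-bs had a difference of log2 ratios, MI minus sham, of 0.97, Hbb-bt of 1.02 and Hba-a1 of 0.88, and Nppa of -1.16. The globin ratios were at or under -1.18 in both sham sections for these 3 genes and between -0.82 and -0.06 in the 3 MI sections. Hba-a2, the remaining alpha globin copy, had a difference of 0.61 (limma adjusted p = 0.834). The part of blood content in these differences was not tested. For Nppa the members held more than the other spots in the sham section of day 3 alone.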

How the results depend on the processing

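Depth, raw counts in the sham section of day 3 and 1 section in 3 of the 4 groups limit what can be shown. For MI against sham, the 7 genes called became 25 (15 higher, 10 lower) with 10% of spots, 13 (11 and 2) with a pseudocount of 5, 4 without the day covariate, and 0 without the filter on low values (291 and 523 at unadjusted p under 0.05, limma). Leaving out 1 section gave 0 to 43 genes. With members over 50% left out, chosen after seeing the data, 4 were called. The difference of ratios gave 4 to 50 genes with 1 section left out, 50 of them without the sham section of day 7 and 38 without MI replicate 1 of day 7. The 47 genes past 0.5 in all sections became 20 (14 higher, 6 lower) with 10% of spots, 16 (14 and 2) with a pseudocount of 5, 64 (31 and 33) without the filter, and 68 to 106 with 1 section left out, where 4 sections had to pass. With the 90th percentile 27 spots were high for both lists. Mean detected genes per spot differed by 70.2, where the medians differed by -32.6 (exact permutation p = 0.5 and 0.875). Of the 13 alternatives, Hbb-bs kept its MI call in 9 and its difference of ratios in 13; Glo1 kept its call in 7 and Tpm3-rs7 in 5, with no reversal. The causes were not tested. No paired analysis was possible because only 1 group has a second replicate, so replicate numbers pair nothing across groups.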
